A study of Mus musculus with 32 samples.

Results

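The caseins are the main proteins of mouse milk. The mouse has 5 casein genes, and each was read by 1 probe set of the array, so that the family made up 5 of the 12488 probe sets measured. They stood for 5 of the 8251 genes with a probe set of their own, and were chosen by gene name, as every probe set annotated to a single casein gene: Csn1s1 (alpha-s1-casein, probe set 96030_at), Csn2 (beta-casein, 99130_at), Csn1s2a (an alpha-s2-like casein, 100463_at), Csn1s2b (a second alpha-s2-like casein, 98814_at) and Csn3 (kappa-casein, 99065_at).

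Secretory cells of the mammary gland make the caseins, phosphorylate them in the Golgi and pack them with calcium phosphate into micelles. The alpha-s and beta types bind calcium through clusters of phosphoserine, and kappa-casein coats the surface of the micelle and keeps it in suspension. Their transcription is driven by prolactin through STAT5, together with glucocorticoid, insulin and contact with the basement membrane.

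All samples came from wild-type FVB mice, an inbred strain. Mammary gland of mice on laboratory chow was sampled at 5 stages with 4 arrays each, pregnancy days 12 and 17 and then days 1, 2 and 9 of lactation. In a diet experiment, dams changed at lactation day 5 from chow to food with 40% or 8% of energy from soy oil, and mammary gland was taken after 5 days, at lactation day 10, with 3 arrays a diet. A further mammary group of 3 arrays is titled 16% fat, and how and when it was fed is not stated; both the 16% and the 8% mammary arrays carry a description with 40%, so groups follow the titles. Liver of dams on 8% fat gave 3 arrays. Tissue was lysed as individual samples, but the labels do not tie an array to an animal, so p-values measure the spread between arrays. These are bulk RNA values, in which a change in the share of secretory cells and a change in RNA per cell cannot be told apart.

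In the mouse the 5 genes lie in 1 cluster on chromosome 5, in the order Csn1s1, Csn2, Csn1s2a, Csn1s2b and, past 3 other protein-coding genes, Csn3. RefSeq promoter windows of GRCm38.p6, from 250 bases before to 50 bases after the gene start, matched Csn1s1, Csn2 and Csn1s2a by symbol. They are shown because prolactin acts on casein genes through STAT5, and the capitals mark the letters TTCNNNGAA, the core of a STAT5-type site, which reads the same on both strands. The windows lie at chr5:87665958-87666257 on the plus strand for Csn1s1, chr5:87699376-87699675 on the minus strand for Csn2 and chr5:87774200-87774499 on the plus strand for Csn1s2a.
Csn1s1: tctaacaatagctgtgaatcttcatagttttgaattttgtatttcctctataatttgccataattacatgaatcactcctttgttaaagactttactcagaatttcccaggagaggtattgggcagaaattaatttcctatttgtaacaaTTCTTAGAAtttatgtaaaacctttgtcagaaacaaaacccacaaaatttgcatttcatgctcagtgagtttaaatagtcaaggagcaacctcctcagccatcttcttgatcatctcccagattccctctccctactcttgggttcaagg
Csn2: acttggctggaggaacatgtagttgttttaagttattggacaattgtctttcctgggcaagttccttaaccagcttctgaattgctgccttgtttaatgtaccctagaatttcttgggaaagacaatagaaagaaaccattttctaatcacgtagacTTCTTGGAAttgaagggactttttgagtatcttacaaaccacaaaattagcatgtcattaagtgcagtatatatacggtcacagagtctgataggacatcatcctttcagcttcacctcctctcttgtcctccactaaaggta
Csn1s2a: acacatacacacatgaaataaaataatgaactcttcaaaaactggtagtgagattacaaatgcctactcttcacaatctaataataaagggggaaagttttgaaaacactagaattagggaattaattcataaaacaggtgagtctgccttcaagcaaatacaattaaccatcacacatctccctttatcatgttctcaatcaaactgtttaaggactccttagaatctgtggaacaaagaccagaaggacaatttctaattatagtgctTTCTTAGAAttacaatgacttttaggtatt
The match starts 100 bases before the gene start in Csn1s1 and 93 bases before it in Csn2, and in Csn1s2a it lies after the start, at bases 21 to 29. It reads TTCTTAGAA in Csn1s1 and in Csn1s2a and TTCTTGGAA in Csn2. Of 32851 mouse promoter windows of this length, 8.30% hold the same letters. A C/EBP-type core TTGCNNAA, searched on both strands, stands in 10.8% of all windows, and TATAAA, on both strands, in 13.6%; these 3 windows hold neither. No promoter of Csn1s2b or Csn3 was used here. These are letter matches and say nothing of binding.

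Values are probe-set intensities on a linear scale, computed by the authors with GCRMA, a method that corrects background by probe sequence. A change is a difference of mean log2 intensity between groups, with limma's standard error (SE) and p-values adjusted by Benjamini-Hochberg over all probe sets tested, and it was called at an adjusted p under 0.05. Testing was limited to probe sets with a group mean at or above an intensity of 18.6, the median of all deposited values. All 5 caseins passed that line in each fit, in the liver fit only through the mammary group. Median intensity per array ran from 16.1 to 21.5, and each array correlated with the others of its group at a mean of 0.988 to 0.995 over all probe sets. A level is compared between groups for 1 probe set, never between probe sets, whose brightness differs by design.

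Mammary casein signal was already high at pregnancy day 12 for 4 of the 5 genes, and Csn1s2b was the exception. Set against its own level at lactation day 9, Csn1s1 stood at 72.3% at pregnancy day 12, Csn2 at 56.4%, Csn1s2a at 52.3% and Csn3 at 40.0%. Csn1s2b stood at 0.0851%. At pregnancy day 17 the same shares were 92.3% for Csn1s1, 75.5% for Csn2, 80.9% for Csn1s2a and 71.6% for Csn3, against 4.08% for Csn1s2b. At lactation day 1 Csn1s2b had reached 43.2% and at day 2 it had reached 56.4%, while the other 4 lay between 84.4% and 93.7% at day 1 and between 94.9% and 103% at day 2. An intensity is not strictly proportional to RNA, least of all near the top of the scale, so these shares describe the signal.

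**Figure D1:**
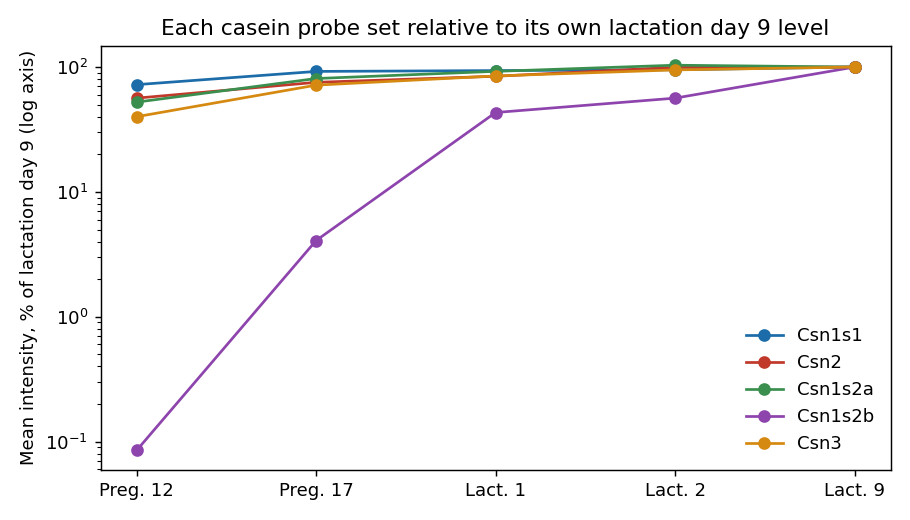
Level of each casein at the 5 stages as a percent of its own level at lactation day 9 (vertical axis, log scale), from means of log2 intensity over 4 arrays a stage. Csn1s2b starts at 0.0851% at pregnancy day 12 and passes 4.08%, 43.2% and 56.4%, while the other 4 genes start between 40.0% and 72.3%.

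Csn1s2b had the largest change of the family. Its intensity was 46.7, 12.5, 14.2 and 27.3 at pregnancy day 12, 1681, 1022, 692 and 1010 at pregnancy day 17, 14727, 10042, 9728 and 10525 at lactation day 1, 12576, 15309, 14479 and 15690 at day 2, and 27041, 27683, 27403 and 21117 at day 9. At pregnancy day 12, 2 of 4 arrays lay under the line of 18.6, and every later array lay far above it. From pregnancy day 12 to 17 the mean log2 level gained 5.58 ± 0.31 (SE; 10.03 ± 0.53 at day 17 against 4.45 ± 0.88 at day 12, SD, n = 4 each; adjusted p = 2.31e-10, limma). With arrays under the line set to the line, the gain was at least 40.6-fold. Of the 7189 probe sets tested over the stages, 87.5% changed by limma's F test; Csn1s2b ranked 4 among them by F, with an adjusted p of 1.55e-14.

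The rise of Csn1s2b spanned birth. Lactation day 1 was 10.6-fold above pregnancy day 17 (log2 change 3.41, adjusted p = 1.82e-07, limma), and lactation day 2 was 13.8-fold above it (3.79, adjusted p = 3.05e-08, limma). Neither step overlapped between arrays. Lactation day 2 exceeded day 1 by 0.38, which was not called (adjusted p = 0.414, limma), and their arrays overlapped. Day 9 exceeded day 2 by 0.83 ± 0.31 (SE), a 1.77-fold difference with no overlap between arrays and a 95% interval of 0.18 to 1.48. It missed the threshold (adjusted p = 0.0589, limma) and passed it in 5 of 7 alternatives, with adjusted p between 0.00109 and 0.0795; leaving out 1 array gave 0.0644 to 0.129. Over the whole course, lactation day 9 was at least 995-fold above pregnancy day 12.

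Csn1s2b read only 12.5 to 46.7 on the pregnancy day 12 arrays, on which its paralog Csn1s2a read 11909 to 14364. Signal from Csn1s2b RNA on the Csn1s2a probe set was not tested, and the probe sequences were not used here.

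Csn3, which encodes the micelle's surface casein, changed most among the other 4. Its intensity was 9716, 7989, 9150 and 10428 at pregnancy day 12, 20530, 14626, 15686 and 16141 at day 17, 21290, 18194, 19374 and 19953 at lactation day 1, 21257, 22543, 21619 and 22562 at day 2, and 24789, 22270, 23711 and 22048 at day 9. All arrays of pregnancy day 17 lay above all of day 12, and the later neighbouring stages drew closer. Its log2 level was 0.84 ± 0.11 higher at pregnancy day 17 than at day 12 (SE, adjusted p = 4.03e-06, limma), and at lactation day 2 it was 0.41 above pregnancy day 17 (adjusted p = 0.00416, limma). Quantile normalization left 0.19 of that second difference and ended the call (adjusted p = 0.180, limma). The difference of 0.24 between lactation day 1 and pregnancy day 17 was not called (adjusted p = 0.105, limma). It was called without pregnancy day 17 replicate 1, the array of 20530 (0.35, adjusted p = 0.0163, limma).

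Csn1s2a had intensities of 13424, 11909, 14364 and 13485 at pregnancy day 12, 23032, 19753, 19857 and 19583 at day 17, 23022, 23727, 22950 and 23954 at lactation day 1, 24355, 26838, 26682 and 27112 at day 2, and 27872, 25500, 26526 and 21878 at day 9. Pregnancy day 12 stood clear of every later stage. The log2 level was 0.63 ± 0.09 higher at pregnancy day 17 than at day 12 (SE, adjusted p = 2.19e-05, limma) and 0.35 higher at lactation day 2 than at pregnancy day 17 (adjusted p = 0.00396, limma); with quantile normalization that second difference was 0.13 and was not called (adjusted p = 0.356, limma). Lactation day 9 had both the highest array and, within lactation, the lowest, and its mean did not differ from day 2 beyond the spread.

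Csn2, the most studied casein and the usual marker of lactogenic differentiation in cell culture, had intensities of 11439, 9875, 13314 and 11254 at pregnancy day 12, 16831, 15183, 14185 and 14996 at day 17, 17734, 16794, 17054 and 16717 at lactation day 1, 20120, 20708, 18293 and 21678 at day 2, and 22868, 18982, 20113 and 19206 at day 9. Pregnancy day 17 exceeded day 12 in every array (0.42 ± 0.10, SE, adjusted p = 0.00190, limma), and so did lactation day 2 over pregnancy day 17 (0.40, adjusted p = 0.00262, limma). Day 2 was 0.24 above day 1 with no overlap between arrays, but the change was not called (adjusted p = 0.101, limma).

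Csn1s1 moved least. Its intensity was 28706, 25958, 28243 and 25787 at pregnancy day 12, 36051, 36909, 34023 and 31810 at day 17, 37402, 33951, 34372 and 35087 at lactation day 1, 35906, 36449, 35719 and 34836 at day 2, and 39650, 37380, 38922 and 34462 at day 9. Pregnancy day 12 lay below all later arrays, which overlapped each other at every step. The log2 level was 0.35 ± 0.08 higher at pregnancy day 17 than at day 12 (SE, adjusted p = 0.00157, limma), but after quantile normalization it stood at -0.11 (adjusted p = 0.458, limma). Quantile normalization gives each probe set the value that belongs to its rank on the array. For a probe set this near the top it compares ranks, so the -0.11 does not measure the level of Csn1s1. At pregnancy day 12 this probe set lay 0.14 to 0.37 below the highest log2 value of its array, against 0.49 to 0.76 at the later stages, and the highest intensity on an array was 28564 to 34959 at pregnancy day 12 against 48682 to 58520 at the later stages. Lactation day 2 differed from pregnancy day 17 by 0.04 (adjusted p = 0.664, limma).

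**Figure D2:**
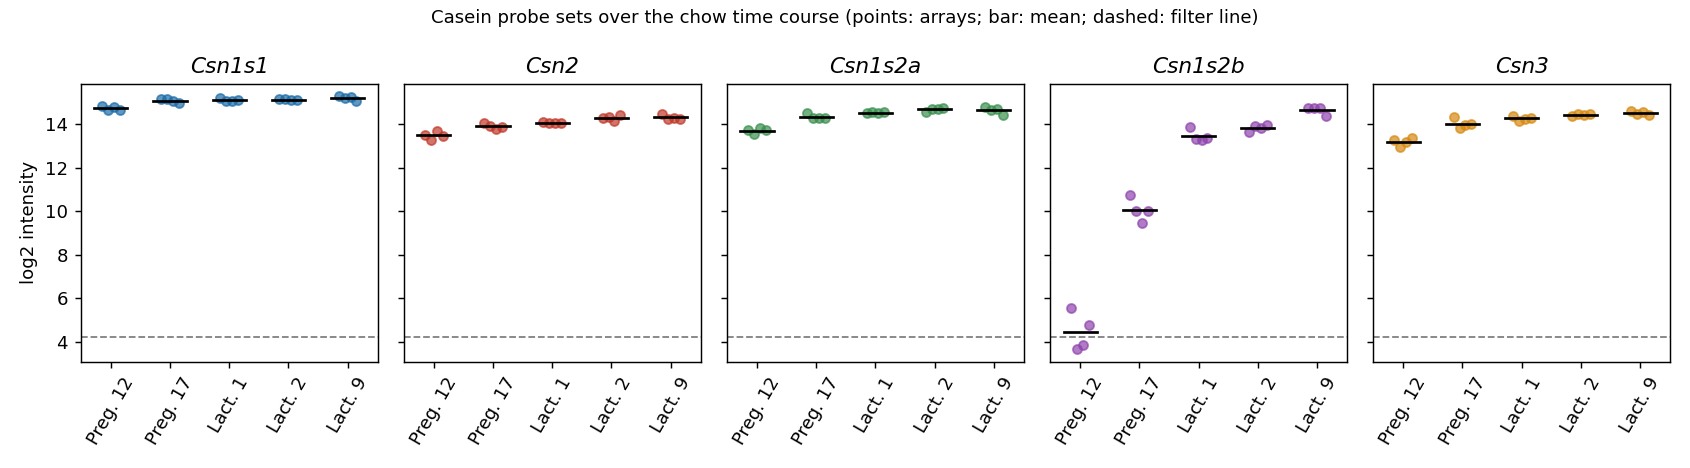
Log2 intensity of each casein (vertical axis) at the 5 stages on chow, in time order, with 1 point per array, a bar at the mean of 4 and a dashed line at the testing limit of 4.22. Csn1s2b spans means of 4.45 to 14.65, and the means of the other 4 genes lie between 13.18 and 15.20.

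Counted by step in the values as deposited, pregnancy day 17 against day 12 was the step between neighbouring stages at which the whole family changed. All 5 caseins were called higher there, and so were 18.4% of all probe sets tested. The median casein change was 0.63, against -0.02 over all probe sets. With quantile normalization, which keeps only its rank, Csn1s1 stood at -0.11 at that step and was not called (adjusted p = 0.458, limma). Lactation day 1 against pregnancy day 17 had 1 casein called higher, Csn1s2b, with 9.32% of all probe sets (median 0.19 against 0.03). With the arrays scaled to equal ribosomal protein signal, all 5 were called there, at 0.37 for Csn1s1, 0.51 for Csn2, 0.54 for Csn1s2a and 0.59 for Csn3 beside Csn1s2b, and so were 49.8% of all probe sets. Lactation day 2 against pregnancy day 17 had 4 called higher, all but Csn1s1, with 25.5% of all probe sets (median 0.40 against 0.04). Quantile normalization kept 2 of these 4 calls, and ribosomal scaling added Csn1s1 (0.44, adjusted p = 0.00129, limma). Lactation day 2 against day 1 and day 9 against day 2 had 0 called by limma, where 6.11% and 8.82% of all probe sets were called higher. At an unadjusted p under 0.05, 1 of 5 caseins passed in each, Csn2 and Csn1s2b in turn. So did 2284 and 2605 of all 7189 probe sets tested, so no casein change is read from these 2. Over all probe sets, the 1027 calls of day 2 against day 1 in both directions became 523 to 1332 when 1 array was left out. Lactation day 9 against pregnancy day 12 had all 5 higher, with 35.2% of all probe sets: 0.47 for Csn1s1, 0.83 for Csn2, 0.93 for Csn1s2a, 1.32 for Csn3 and 10.20 for Csn1s2b. With quantile normalization Csn1s1 stood at -0.031 there (adjusted p = 0.807, limma).

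Pregnancy day 12 was the lowest stage and day 17 the next for every casein in the values as deposited. Csn1s1 was the exception under quantile normalization, which keeps only its rank. Past pregnancy day 17, the only called difference between neighbouring stages in the values as deposited was that of Csn1s2b at birth, where ribosomal scaling called all 5. By mean, the highest stage was lactation day 2 for Csn1s2a and day 9 for the other 4, although for Csn2 those 2 stages were equal at 14.30.

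The composition of the casein message was compared as the log2 ratio of each other casein to Csn2 within an array, where a scaling of the whole array cancels. From pregnancy day 12 to 17 the ratio gained 5.16 for Csn1s2b, 0.42 for Csn3 and 0.21 for Csn1s2a, and the arrays of the 2 stages did not overlap. For Csn1s1 it differed by -0.07, with overlap. At birth, day 1 against pregnancy day 17, the ratio was 3.24 higher for Csn1s2b and 0.14 lower for Csn1s1 (a difference of -0.14), and again no arrays overlapped. Lactation day 2 against day 1 gave -0.22 for Csn1s1, and day 9 against day 2 gave 0.82 for Csn1s2b. These 7 of 16 differences each had a two-sided exact permutation p of 0.0286, the smallest that 4 arrays against 4 can give. Their adjusted p of 0.0653 missed the threshold, so 0 of 16 passed. With adjustment over 16, no difference could have passed on its own, whatever its size, so no conclusion is drawn from that count. Ratios of other genes to Csn2 were not computed, so the share of all probe sets with such separation is not known. No conclusion is drawn from the 7 of 16 either. The other 9 had exact p of 0.171 or more. The ratios are of probe-set signals, and an intensity near the top of the scale, as for Csn1s1, can compress a ratio; this was not tested.

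**Figure D3:**
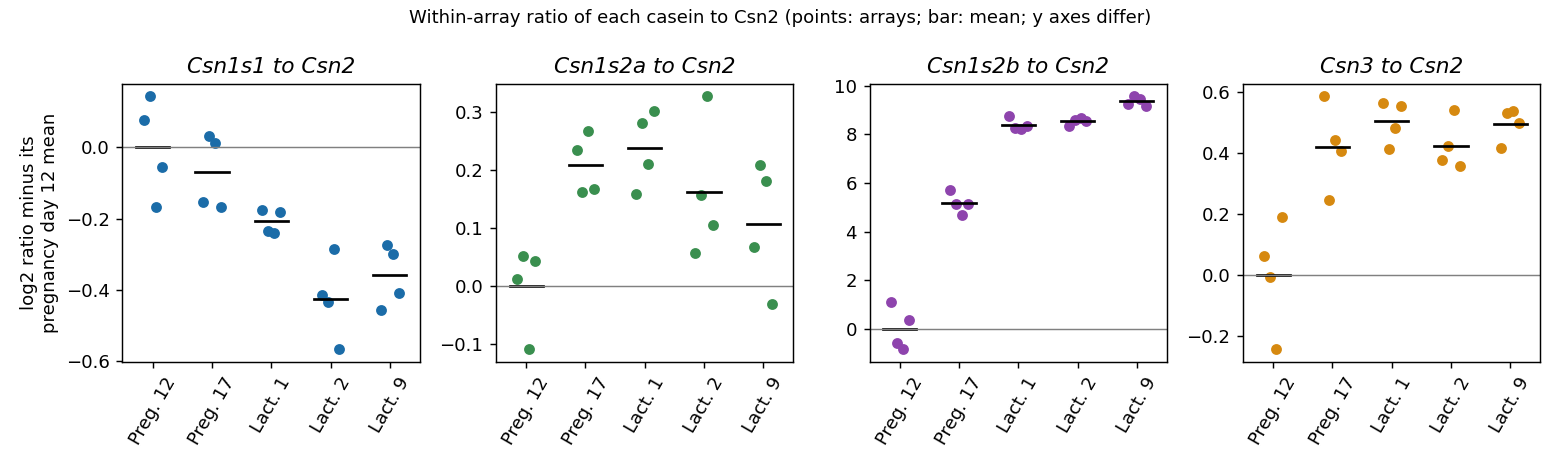
Within-array log2 ratio of Csn1s1, Csn1s2a, Csn1s2b and Csn3 to Csn2 (vertical axis, minus the mean ratio at pregnancy day 12; axes differ between panels) at the 5 stages, 1 point per array with a bar at the mean of 4. Csn1s2b stands 5.16 above its starting ratio at pregnancy day 17, against 0.42 for Csn3, 0.21 for Csn1s2a and -0.07 for Csn1s1.

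Across the 20 stage arrays the 5 log2 profiles correlated with each other at 0.887, for Csn1s1 with Csn2, to 0.977, for Csn1s2a with Csn3. The arrays fall into stage groups, so these values mainly describe the shared order of stages. Some arrays were high or low for most of the family: pregnancy day 17 replicate 1, lactation day 1 replicate 1, lactation day 2 replicate 4 and lactation day 9 replicate 1 each held the highest value of their group for 4 of the 5 caseins, and pregnancy day 12 replicate 2 and lactation day 9 replicate 4 the lowest for 4.

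By the same Pearson correlation over 20 arrays, the non-casein genes most like Csn1s2b were Cidea, a lipid droplet protein (0.990), Folr1, a folate receptor (0.987), and Slc34a2, a sodium-phosphate cotransporter (0.986). Cidea had mean log2 levels of 7.38, 10.21, 12.95, 12.84 and 13.55 from pregnancy day 12 to lactation day 9. Csn3 was most like another, dimmer probe set of Folr1 (0.967), the chloride transporter Clcn3 (0.963) and Ltf, lactoferrin (0.958). Csn1s2a was most like Clcn3 (0.971), Mob2, a regulator of NDR kinases (0.962), and the dimmer Folr1 probe set (0.950). Csn2 was most like Plk3, a polo-like kinase (0.970), Mob2 (0.959) and the pseudogene Trp53-ps (0.958). Csn1s1 had the weakest likeness, to Arhgap9 (0.926), the noncoding RNA Tug1 (0.921) and the dimmer Folr1 probe set (0.920). Arhgap9 and Tug1 read near the testing limit of 4.22 in log2. Mean log2 levels at pregnancy day 12 and lactation day 9 were 4.37 and 4.73 for Arhgap9. Those of Tug1 were 3.41, under the limit, and 4.70. Whether their likeness to Csn1s1 reflects more than drift near the limit was not tested.

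Of 14 other milk protein genes listed, 11 had a probe set and all 11 were called higher at pregnancy day 17 than at day 12, as were 18.4% of all probe sets, with a median of 1.76; the largest changes were those of Cel, a milk lipase (3.40), Ltf (3.21), Lalba, alpha-lactalbumin (2.22), and Pigr, the carrier of IgA into milk (2.12). At lactation day 1 against pregnancy day 17, 4 of 11 were called higher, beside 9.32% of all probe sets: Lalba (2.64), Muc1, a mucin of the milk fat globule (2.29), Btn1a1, butyrophilin (1.17), and Xdh, xanthine dehydrogenase (1.00). At lactation day 2 against day 1, 0 of 11 were called by limma (6.11% of all probe sets were called higher), and at day 9 against day 2 the 1 called, Lcn2, fell by 0.81, beside 16.2% of all probe sets called lower.

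Listed regulators of casein transcription changed in both directions. Of 23 listed, 15 were tested. At pregnancy day 17 against day 12, where 18.4% of all probe sets were called higher and 26.7% lower, 1 was called higher, Nfib, a transcription factor of the nuclear factor I family (0.71), and 3 were called lower: Socs2, an inhibitor of cytokine signalling (-1.61), Stat6, a transducer of interleukin signals (-0.64), and Cebpb, C/EBP-beta (-0.42). At lactation day 1 against pregnancy day 17, beside 9.32% of all probe sets higher and 14.0% lower, Akt1, a kinase of the insulin pathway, was called higher (0.81) and 4 were called lower, the largest being Stat3 (-0.87), Nfib (-0.84) and Cebpb (-0.66). At lactation day 9 against day 2, Socs2 (1.68) and Elf5, a factor of alveolar fate (0.46), were called higher and Nfib lower (-0.79), beside 8.82% and 16.2% of all probe sets. Over the whole course from pregnancy day 12 to lactation day 9, 4 of 15 were called higher and 7 lower, shares near those of all probe sets, of which 35.2% were higher and 42.4% lower. The largest were Akt1 at 1.31, Stat6 at -1.20, Stat5b at 1.18 and Nr3c1, the glucocorticoid receptor, at 0.91, whose mean at pregnancy day 12 lay under the line of 18.6. Stat5a, named here after its values were seen, stood at -0.49 (adjusted p = 0.0485, limma). Prlr, the prolactin receptor, was not among the tested genes.

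Genes listed for casein modification or for the handling of calcium and phosphate, calcium-binding proteins included, formed a list of 16, of which 10 were tested. At pregnancy day 17 against day 12, 4 of 10 were called higher and 2 lower, beside 18.4% and 26.7% of all probe sets. Slc34a2 led (2.89), followed by Atp2a3, a calcium pump of the endoplasmic reticulum (-0.90, with its day 17 mean under the line), Slc20a1, a phosphate carrier (0.67), and Nucb1, a Golgi calcium-binding protein (-0.64). At lactation day 1 against pregnancy day 17, 4 were called higher and 1 lower, beside 9.32% and 14.0% of all probe sets, with Atp2b2, the calcium pump of the apical membrane, at 3.61 and Slc34a2 at 3.53. Atp2b2 had a mean log2 level of 8.07 at lactation day 1 against 4.46 at pregnancy day 17. At lactation day 9 against day 2, Atp2b2 was called higher (0.91), and Calu, a calcium-binding protein of the secretory pathway (-0.62), and Nucb1 (-0.60) were called lower, beside 8.82% of all probe sets higher and 16.2% lower. Fam20c, the kinase that phosphorylates caseins, was chosen after its values were seen and was 0.72 higher at lactation day 9 than at pregnancy day 12 (adjusted p = 0.0034, limma).

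Of 20 genes near the casein cluster, 13 had a probe set and 7 were tested over the stages; none of the 13 lies between Csn1s1 and Csn3. At lactation day 9 against pregnancy day 12, 4 of 7 were called higher and 2 lower, where 35.2% of all probe sets were higher and 42.4% lower. The largest were Dck, deoxycytidine kinase (-3.12), Prol1 (2.59), Jchain, the joining chain of secreted IgA and IgM (2.59), and Sult1d1, a sulfotransferase (1.14). Dck at lactation day 9, and Prol1 and Sult1d1 at pregnancy day 12, had means under the line of 18.6. At pregnancy day 17 against day 12, 2 of 7 were called higher and 1 lower, beside 18.4% and 26.7% of all probe sets.

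Markers of other cell types moved over the same stages. The summed intensity of 7 fibroblast markers was 1300 to 4151 at lactation day 9 against 13241 to 16309 at pregnancy day 12, and all 7 were called lower, beside 42.4% of all probe sets. The 6 adipocyte markers on the array summed to 1043 to 1803 against 6388 to 10239, with 6 of 6 called lower, and 6 macrophage markers to 304 to 722 against 1474 to 2284, with 6 of 6 lower. The 9 luminal epithelial markers also summed lower, to 1163 to 1323 against 5323 to 7037, with 6 of 8 tested called lower, and the 5 myoepithelial markers to 738 to 1264 against 2504 to 3199, with 3 of 3 tested lower. Of the epithelial markers, Krt5, Krt14 and Cdh1 had means under the line of 18.6 in every group. The part of these shifts in the casein changes was not tested.

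The diets asked whether the fat content of the food changes casein RNA, at lactation day 10 for 40% and 8% fat. The day of lactation of the 16% group is not stated. No casein was called by limma in any pair of diets. On 40% fat against 8% fat, 0 of 5 were called, with 0.0925% of all probe sets called in either direction; 538 of all probe sets, and 0 caseins, had an unadjusted p under 0.05. On 16% against 8%, 0 of 5 were called, with 0% of all probe sets (800 at an unadjusted p under 0.05, 0 of them caseins), and on 40% against 16%, 0 of 5, with 0.123% (886, and 0 caseins).

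Csn1s2b had the largest difference between 40% and 8% fat. Its intensity was 24347, 25749 and 27632 on 8% fat, 27589, 27640 and 26231 on 16% fat and 27683, 27709 and 31949 on 40% fat. Every array on 40% fat lay above every array on 8% and 16% fat, by a margin that was small next to the spread within a diet. The log2 difference of 40% against 8% was 0.17, with a 95% interval of -0.05 to 0.38 (adjusted p = 0.714, limma).

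Csn2 read 19704, 19380 and 19360 on 8% fat, 19272, 18488 and 17116 on 16% fat and 18672, 18350 and 22797 on 40% fat. Its 16% arrays all lay below the 8% ones, with a log2 difference of -0.09 and an interval of -0.33 to 0.14. Csn1s1 read 35547, 33756 and 35037 on 8% fat, 34567, 32449 and 33684 on 16% fat and 34674, 33648 and 36774 on 40% fat. Csn1s2a read 23000, 22861 and 25893 on 8% fat, 23404, 23353 and 21125 on 16% fat and 23968, 22964 and 23461 on 40% fat. For both genes the arrays of the 3 diets overlapped. Csn3 read 21391, 21424 and 22989 on 8% fat, 21812, 20123 and 19744 on 16% fat and 21333, 21606 and 21873 on 40% fat, again with overlap. Over all 5 caseins, the 95% intervals of 40% against 8% lay between -0.23 and 0.38 on the log2 scale. Those of 16% against 8% lay between -0.33 and 0.29, and those of 40% against 16% between -0.15 and 0.36. These intervals are of the signal, which near the top of the scale is not strictly proportional to RNA. A p that misses the threshold does not show that the diets give equal casein levels. The luminal marker sum was 1277 to 1478 on 40% fat against 1270 to 1514 on 8% fat. The fibroblast sum was 1885 to 2044 on 40% fat against 1439 to 1707 on 8% fat and the myoepithelial sum 1122 to 1699 against 1814 to 1970, both without overlap, although no marker of either list was called by limma; their part was not tested.

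**Figure D4:**
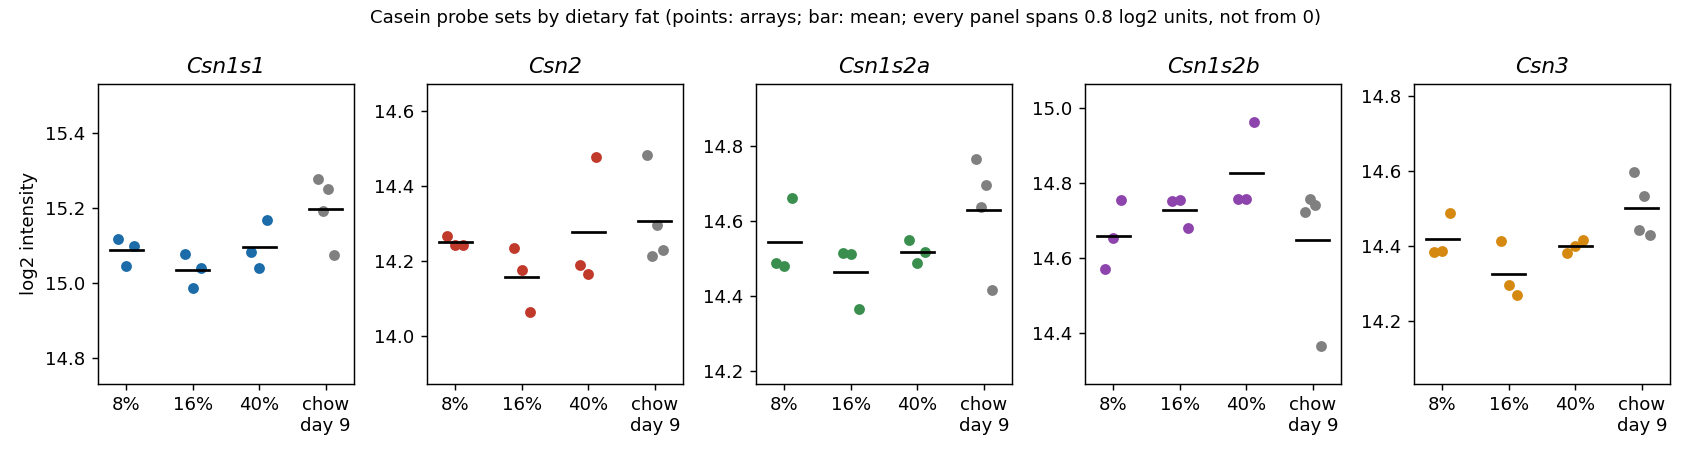
Log2 intensity of each casein (vertical axis) in mammary gland on 8%, 16% and 40% dietary fat and, in grey, on chow at lactation day 9, with 1 point per array and a bar at the mean; each panel spans the same width and does not start at 0. No 2 means of the 3 diets differ by more than 0.17.

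Dams on 8% fat at lactation day 10 were set against chow-fed dams at lactation day 9, where diet, day and experiment cannot be told apart. No casein was called by limma, while 15.3% of all probe sets were (1029 in all, and 2692 at an unadjusted p under 0.05, with 0 caseins). Leaving out 1 array moved the 1029 to between 180 and 2267, and the casein count stayed at 0. The casein differences ran from -0.11 for Csn1s1 to 0.01 for Csn1s2b, with 95% intervals between -0.34 and 0.29. In intensity, Csn1s2b read 24347, 25749 and 27632 on 8% fat against 27041, 27683, 27403 and 21117 on chow. The 5 myoepithelial markers summed to 1814 to 1970 on 8% fat against 738 to 1264 on chow. Of them, 3 of 3 tested were called higher, beside 8.76% of all probe sets. Of the luminal markers tested 1 of 7 was called higher, of the adipocyte markers 1 of 6, and of the fibroblast and macrophage markers 0. The part of these shifts was not tested.

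Liver of dams on 8% fat served as a tissue that makes no milk, and all 5 casein probe sets read under the line there. Csn1s1 read 3.99, 3.81 and 3.67 in liver against 35547, 33756 and 35037 in mammary gland on the same diet. Csn2 read 5.95, 5.49 and 5.51 against 19704, 19380 and 19360. Csn1s2a read 5.95, 6.31 and 5.49 against 23000, 22861 and 25893. All 15 liver values of the family lay under the line of 18.6, and no array of one tissue came near one of the other.

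Csn1s2b read 8.79, 8.97 and 7.93 in liver against 24347, 25749 and 27632 in mammary gland, and Csn3 read 3.94, 5.09 and 7.49 against 21391, 21424 and 22989. Taking a liver array under the line as the line, mammary gland was at least 1868-fold above liver for Csn1s1, 1046-fold for Csn2, 1283-fold for Csn1s2a, 1390-fold for Csn1s2b and 1178-fold for Csn3. All 5 were called lower in liver by limma, with 40.3% of all probe sets. The caseins entered this fit only through the mammary group, where they are high, so the direction of the call was set beforehand and no conclusion is drawn from it. Since every liver value lay under the line, only these bounds on the size are given. Of the other milk proteins, 11 of 11 were called lower in liver, with a median change of -9.48. They were listed as milk proteins, and their mammary levels were enough to bring them into this fit, whatever their liver levels. No conclusion is drawn from that count either. Of the 15 regulators, 9 were called lower and 4 higher, where 39.7% of all probe sets were higher. The mean log2 level of Elf5 was 3.30 in liver, under the line, and 11.74 in mammary gland, and that of Stat5a 4.55 and 7.67. The 8 hepatocyte markers summed to 99894 to 109187 in liver against 453 to 1234 in mammary gland. In mammary gland 7 of the 8 had means under the line, all but Cyp2e1 (mean log2 level 9.59). The mean log2 level of Alb was 14.9 in liver and 3.4 in mammary gland. The animals behind liver and mammary arrays are not matched by the labels, and the fit treated them as separate.

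**Figure D5:**
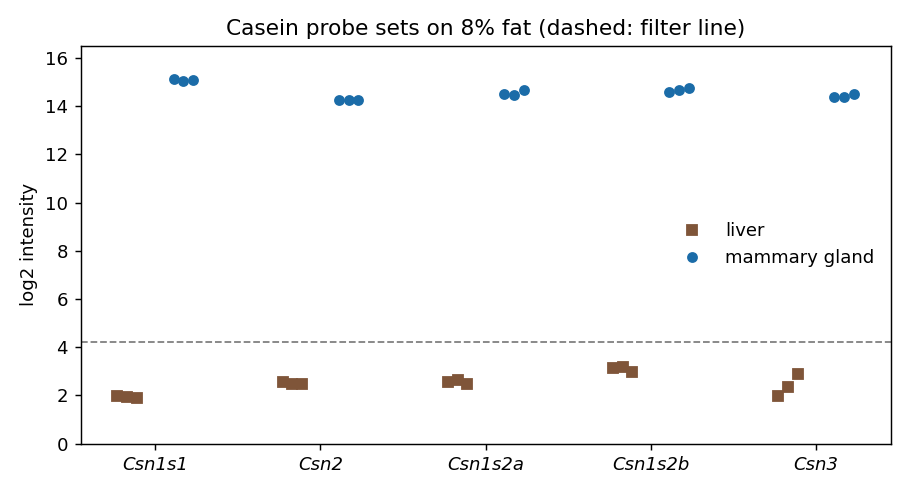
Log2 intensity of each casein (vertical axis) in liver and in mammary gland of dams on 8% fat, with 3 arrays each. All 15 liver points lie under the line of 18.6 (4.22 in log2), and the lowest mammary point is at 14.24.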

How the data were processed

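RNA levels were measured on 32 arrays of mammary gland and liver. The authors deposited 1 table of linear probe-set intensity values per array, 12488 probe sets from 0.684 to 58520.1, computed with GCRMA per the submitters' processing notes; the sources used here give neither its settings nor its version. Tissue was kept in RNALater and about 5 µg of total RNA was labelled, per the labels.

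The values were used as deposited, set to at least 1 (208 values were lower) and taken to log2. Removing 66 control probe sets gave 12422. Each fit tested those with a group mean at or above 18.6, the median over the whole table. Genes came from the array's annotation table, with 10833 of a single gene, 396 of several and 1193 of none; RefSeq held 10817 of the 10833 and changed 0 symbols. A gene of a list was read through its brightest probe set. Stages (20 arrays), mammary diets (9), 8% fat with chow day 9 (7) and tissue (6) each had a limma fit (limma 3.58.1 in R 4.3.3), with Benjamini-Hochberg adjustment over all probe sets tested. Ratios to Csn2 were compared by exact permutation (scipy 1.17.1), adjusted over 16. The fits were tested on simulated data.

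Described were all casein probe sets, the 3 genes most alike over the stage arrays for each, and up to 4 called genes of largest change per list and comparison; genes outside this rule are said to be so. The members and lists were chosen with earlier results of these data known, and the labels do not say whether same-numbered arrays share an animal or batch. No column of the table was left unmapped. Other filters, a pseudocount of 16, quantile and ribosomal scaling, a replicate block, 2-stage fits and leaving out each array in turn were the alternatives. Precision is limited by the 3 or 4 arrays of a group.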

Additional observations from a re-analysis of the deposited data

Results flagged for a closer look

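Within groups of 4 arrays, 3 casein values stood apart from the rest of their group by Dixon's test at 95%, among 25 casein and stage groups tested, where chance gives about 1 in 20. Csn1s2a at lactation day 2 was 14.57 in log2 intensity in replicate 1, against 14.70 to 14.73 in the other arrays. Csn1s2a at pregnancy day 17 was 14.49 in replicate 1, against 14.26 to 14.28, and that array was also the highest of its group for 4 of 5 caseins. Csn1s2b at lactation day 9 was 14.37 in replicate 4, against 14.72 to 14.76, and that array held the lowest value of its group for 4 of 5 caseins. Left out in turn, none of the 3 arrays took away a called change of the casein it stood apart in.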

How the results depend on the processing

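Most casein values kept their direction and their side of the threshold: 334 of them under other filters, scalings and fits, and 381 when an array was left out. The large liver differences are among those kept. Under other filters, scalings and fits, 10 gained a call, 2 lost it, 2 lost it with a change of direction, and 12 uncalled ones changed direction or went to 0. When an array was left out, 1 gained a call and 13 uncalled ones changed direction. After quantile normalization Csn1s1 turned to -0.11 for pregnancy day 17 against day 12 and to -0.031 for lactation day 9 against pregnancy day 12, 2 caseins (against 4) were called at lactation day 2 against pregnancy day 17, and 4 of 5 passed the F test. With the medians of 19 ribosomal protein probe sets made equal, 5 caseins (against 1) were called at lactation day 1 against pregnancy day 17, and Csn1s1 passed at lactation day 2 against pregnancy day 17 (0.44, adjusted p = 0.00129, limma). That scaling adds 1 constant per array, which shifted the median of all probe sets by 0.35 in the first, 0.39 in the second, 0.50 at lactation day 9 against pregnancy day 12 and 0.96 in liver; quantile normalization shifted it by 0.13 at pregnancy day 17 against day 12, 0.28 at lactation day 9 against pregnancy day 12 and -0.26 in liver. The ribosomal set kept the brightest probe set of each gene above the line, a rule refined after seeing that dim ones drift. At lactation day 9 against day 2, 1 casein, Csn1s2b, was called (against 0) with the 75th percentile filter of 69.5 (adjusted p = 0.0390), log2(value + 16) (0.0168), ribosomal scaling (0.0406), the replicate block (0.0350) and only the compared stages (0.00109), all by limma. Leaving out 1 array gave 1 to 2 caseins at lactation day 1 against pregnancy day 17, and the same count as reported in every other comparison. The cause of these moves was not tested. Replicate numbers are shared between groups, but same-numbered arrays correlated at only -0.228 to 0.263 after removal of group means and no comparison had all its pairs above 0.1, so they were taken as numbers only; the replicate block changed no other casein call. Each casein has 1 probe set, so ratios of other probe sets could not be run; all ratio differences kept their direction or moved by less than the spread.

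Over all probe sets, the share of calls that were higher was 40.0% as deposited and 91.4% with ribosomal scaling at lactation day 1 against pregnancy day 17, 51.0% and 85.3% at lactation day 2 against pregnancy day 17, 45.3% and 69.6% at lactation day 9 against pregnancy day 12, 57.3% and 70.5% for 8% fat against chow, and 49.6% and 87.9% in liver; with quantile normalization it was 40.7% and 52.1% at pregnancy day 17 against day 12 and 35.3% and 50.4% at lactation day 9 against day 2. For the few diet calls the share as deposited, with quantile normalization and with ribosomal scaling was 50%, 25% and 37.5% for 40% against 8% fat and 62.5%, 50% and 77.3% for 40% against 16% fat. Calls without a filter, with the 75th percentile filter and as reported numbered 6873, 1890 and 3245 at pregnancy day 17 against day 12, 7676, 2107 and 3589 at lactation day 2 against pregnancy day 17, 10370, 3085 and 5577 at lactation day 9 against pregnancy day 12, 5, 22 and 8 for 40% against 16% fat, 5128, 626 and 1029 for 8% fat against chow, and 10292, 3368 and 5518 in liver. Ribosomal scaling gave 4112 calls against 1674 at lactation day 1 against pregnancy day 17, 530 against 1027 at lactation day 2 against day 1, 22 against 8 for 40% against 16% fat and 525 against 1029 for 8% fat against chow. Quantile normalization gave 16 and 559 in those last 2, the replicate block 5 and 60, and 1 against 6 for 40% against 8% fat, and log2(value + 16) gave 18 for 40% against 16% fat. Without 1 array, the calls at lactation day 2 against day 1 (1027) were 642 and 600 without lactation day 2 replicates 3 and 4, and 561, 523 and 595 without day 1 replicates 2, 3 and 4. Those of 8% fat against chow (1029) were 272, 180 and 255 without 8% replicates 1, 2 and 3, and 2267, 446 and 362 without chow replicates 2, 3 and 4. The diet pairs had 1 to 4 calls for 40% against 8% (6), 0 to 2 for 16% against 8% (0) and 1 to 18 for 40% against 16% (8).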
